A study of Homo sapiens with 6 samples.

Results

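The genes described here are the ligands and receptors of axon guidance in SK-MEL-28, a human cutaneous melanoma cell line. They were chosen by symbol among protein-coding genes, as the semaphorins, plexins, ephrins, Eph receptors, SLIT1 to SLIT3, ROBO1 to ROBO4, UNC5A to UNC5D, NTN1, NTN3, NTN4, NEO1 and DCC. The annotation holds 67 such genes, and 44 of them are among the 13449 genes of the deposited table. NRP1 and NRP2, the neuropilin co-receptors of secreted semaphorins, are not members.

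The cells were transfected either with an siRNA against the long noncoding RNA DANCR (3 libraries labelled siDANCR) or with a non-targeting control siRNA (3 libraries labelled control), and poly(A) RNA was sequenced. All 6 libraries come from this single line, and every library received a transfected siRNA. The value used here is the authors' mean normalised count of each gene over all 6 libraries. The table holds 0 columns of values per library, and its other columns are the authors' own comparison of siDANCR with control, which was not used. The question that the design poses, what DANCR depletion does to a transcript, is therefore not addressed for any gene below. Neither replicate error nor depth per library could be computed, so differences between genes are given as ratios of pooled means, with no test. The single value used for DANCR is its pooled mean of 425.9 normalised counts. Replicates that stand apart were not looked for, and the labels were not checked against the DANCR level, since a pooled mean allows neither and the comparison columns were set aside.

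Axon guidance signalling steers growing axons and migrating cells through attraction and repulsion at short or long range. Semaphorins act through plexins, with neuropilins as co-receptors for most of the secreted class. Ephrins bind Eph receptor tyrosine kinases on neighbouring cells and both partners can signal, SLITs act through ROBO receptors, and netrins act through DCC, neogenin (NEO1) and the UNC5 receptors. Melanocytes derive from the neural crest, a migratory embryonic population that is itself guided by semaphorins, ephrins and SLITs.

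Counts grow with transcript length, so the levels below are mean normalised counts divided by the length in kb of the canonical transcript. The median level of the 11423 protein-coding genes in the table was 117 normalised counts per kb, with quartiles at 47.9 and 274. The labelled cell type was checked against marker genes. Of 8 melanocyte lineage markers, 7 were in the table, at 1219 to 11535 normalised counts per kb, led by the melanosome protein gene PMEL, and TYRP1 was not among the table's genes. Of 8 leukocyte and neuron markers none was in the table. Of 5 keratinocyte markers only KRT10 was there, at 135 normalised counts per kb, of 6 fibroblast markers only LUM, at 242, and of 3 endothelial markers only VWF, at 2.75. A further endothelial marker, PECAM1, had no match in the annotation and was not checked. The defining keratins KRT5 and KRT14 and the fibrillar collagens COL1A1, COL1A2 and COL3A1 were not in the table.

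Promoter sequences of 4 members are shown to set transcript level beside sequence composition. They are the member with the highest level (SEMA4C), a listed member with few CpG dinucleotides (SEMA3C), and a receptor and its ligand of which one was in the table and the other was not (EPHB4 and EFNB2). Each runs from 250 bases before to 50 bases after the RefSeq transcription start, 5′ to 3′ on the coding strand, with CpG dinucleotides in capitals. All 4 genes lie on the minus strand, and the windows are chr2:96870031-96870330, chr7:80922340-80922639, chr7:100827474-100827773 and chr13:106535613-106535912 in GRCh38.p14, the build of the RefSeq table.
SEMA4C promoter: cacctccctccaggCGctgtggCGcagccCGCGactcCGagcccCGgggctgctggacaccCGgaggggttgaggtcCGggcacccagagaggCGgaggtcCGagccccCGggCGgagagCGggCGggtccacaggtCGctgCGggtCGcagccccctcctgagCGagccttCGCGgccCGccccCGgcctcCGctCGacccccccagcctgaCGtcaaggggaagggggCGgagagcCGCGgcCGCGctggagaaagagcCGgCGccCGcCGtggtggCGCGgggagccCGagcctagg
SEMA3C promoter: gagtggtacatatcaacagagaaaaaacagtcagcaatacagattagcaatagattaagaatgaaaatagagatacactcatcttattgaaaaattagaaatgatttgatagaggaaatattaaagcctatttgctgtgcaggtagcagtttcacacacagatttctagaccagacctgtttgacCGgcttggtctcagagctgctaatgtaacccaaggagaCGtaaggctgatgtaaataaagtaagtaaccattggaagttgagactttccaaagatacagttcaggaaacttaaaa
EPHB4 promoter: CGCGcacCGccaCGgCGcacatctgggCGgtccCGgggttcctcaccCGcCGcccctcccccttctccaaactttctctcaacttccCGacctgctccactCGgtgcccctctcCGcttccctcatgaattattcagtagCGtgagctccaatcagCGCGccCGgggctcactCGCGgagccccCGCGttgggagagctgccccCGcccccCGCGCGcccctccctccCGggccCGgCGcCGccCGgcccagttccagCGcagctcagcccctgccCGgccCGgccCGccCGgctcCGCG
EFNB2 promoter: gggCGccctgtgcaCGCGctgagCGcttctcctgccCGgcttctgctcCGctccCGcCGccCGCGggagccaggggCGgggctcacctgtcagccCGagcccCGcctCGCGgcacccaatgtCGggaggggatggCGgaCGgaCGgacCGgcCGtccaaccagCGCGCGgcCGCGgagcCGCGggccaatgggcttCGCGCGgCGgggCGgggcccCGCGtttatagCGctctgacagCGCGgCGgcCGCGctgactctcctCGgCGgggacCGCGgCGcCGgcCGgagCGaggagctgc

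As a group the members stood low. Of the 44 in the table, 12 (27.3%) were at or above the median level of all protein-coding genes there, and 19 (43.2%) were below the lower quartile. Only SEMA4C, SEMA6A, PLXNA1 and PLXNB2 (9.09%) were above the upper quartile. The median member lay at the percentile of 32.1, against 50 for all genes by construction. These genes make long transcripts, with a median length of 5477 bases against 2866 for all protein-coding genes, and without division by length the median percentile was 48.0. In an RNA extract of this kind, fewer cells that carry a transcript and less of it per cell cannot be told apart.

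**Figure D1:**
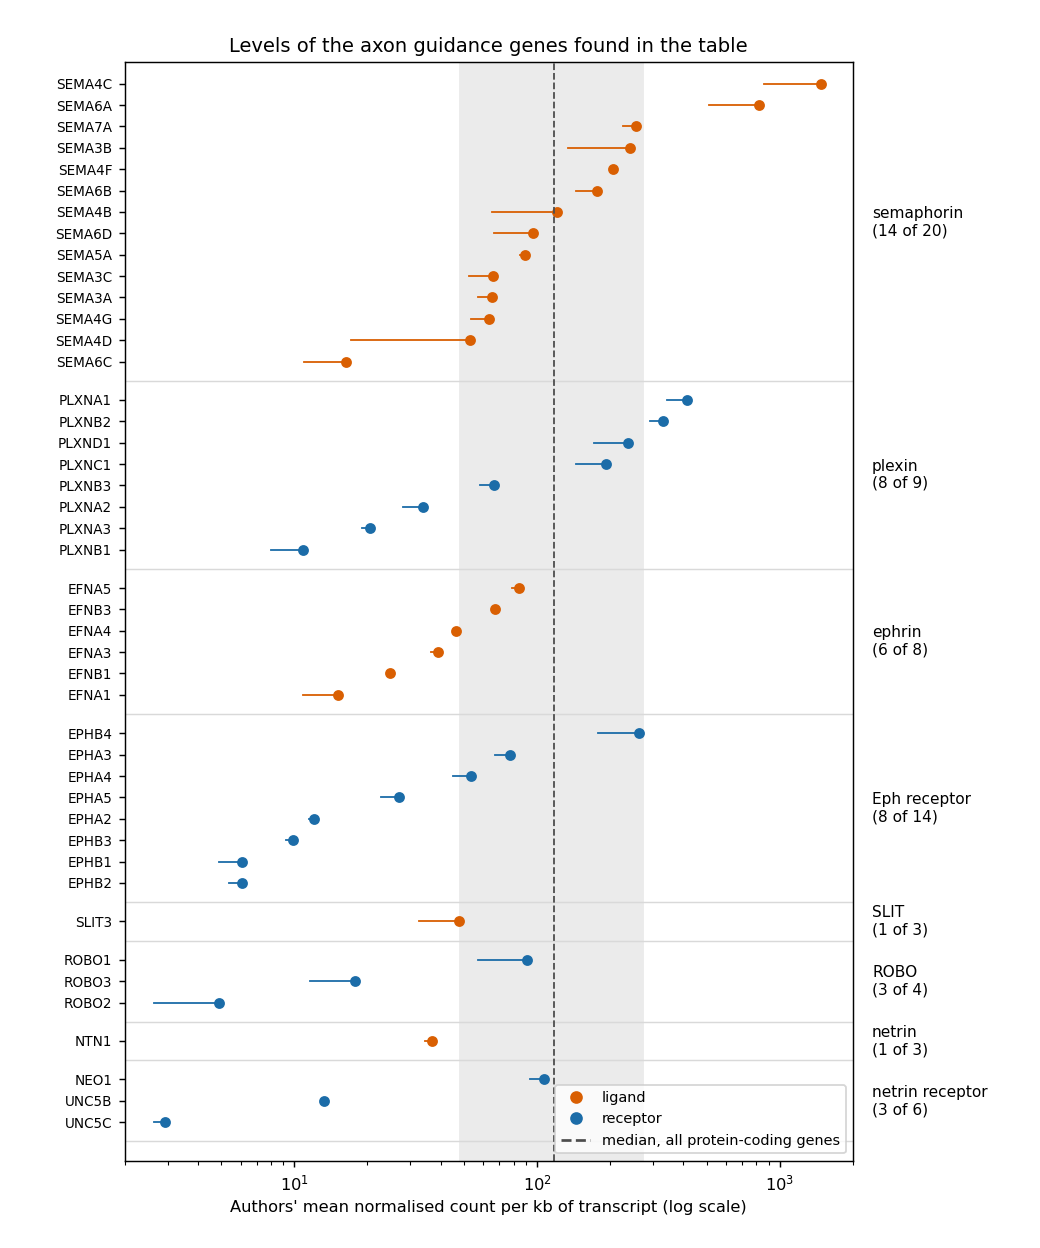
Authors' mean normalised count per kb of canonical transcript (points, log axis) for each of the 44 members in the table, grouped by family, with the number of annotated members found. Lines run to the lowest and highest level obtained with the merged exons or the longest transcript as the length, the dashed line is the median of all protein-coding genes (117) and the grey band their middle range (47.9 to 274). SEMA4C and SEMA6A sit far to the right of all other members.

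Semaphorins and plexins were the only families whose medians were near that of all genes, at 108 and 130 normalised counts per kb. The medians were 42.7 for ephrins, 19.5 for Eph receptors, 17.8 for ROBOs and 13.2 for the netrin receptors. SLIT3 and NTN1 were the single members of their ligand families in the table, at 47.7 and 36.9. In the table were 14 of 20 semaphorins, 8 of 9 plexins, 6 of 8 ephrins, 8 of 14 Eph receptors, 1 of 3 SLITs, 3 of 4 ROBOs, 1 of 3 netrins and 3 of 6 netrin receptors. That is 65.7% of the members, beside 56.6% of the 20175 annotated protein-coding genes. On the canonical transcript no family other than semaphorins, plexins and Eph receptors held a gene above the median of all genes, whereas with merged exons EFNA5 and NEO1 (79.1 and 93.3 normalised counts per kb) also passed that length's median of 72.3.

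Semaphorins carried most of the transcript of the whole group. They made up 61.4% of the members' summed level, plexins 21.4%, Eph receptors 7.45%, ephrins 4.53%, SLITs and ROBOs together 2.64% and netrins with their receptors 2.62%. A pair of genes accounted for much of this, since SEMA4C and SEMA6A alone held 37.7% of the members' summed level. Without both genes the semaphorin share was 38.0%.

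SEMA4C encodes a transmembrane semaphorin that acts through plexin-B2. It stood at 1482 normalised counts per kb, from a mean of 5412 normalised counts on 3652 bases, at percentile 97.1 of protein-coding genes. The gene lies on the minus strand of chromosome 2 from 97525455 to 97536494 (GRCh37), and its canonical transcript has 15 exons. SEMA6A, a transmembrane semaphorin that guides migrating cerebellar granule cells in mice, followed at 819.8 normalised counts per kb, from the highest mean count of any member (5598). It lies on the minus strand of chromosome 5 from 115779251 to 115910519 (GRCh37) with 19 exons. SEMA4C had 1.81 times the level of SEMA6A per kb, and was first of all members under each of the 4 definitions of length, but by mean count SEMA6A was first. With all annotated exons merged as the length, SEMA4C stood at 864 and SEMA6A at 513 normalised counts per kb.

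The other semaphorins spread over a wide range. SEMA7A, a semaphorin held at the membrane by a lipid anchor, stood at 255 normalised counts per kb, and SEMA3B, a secreted semaphorin from the short arm of chromosome 3, at 242. SEMA4F stood at 206, SEMA6B at 177 and SEMA4B at 121, the last being just above the median of all genes. With merged exons as the length, SEMA3B fell from rank 7 to rank 11 among the members and SEMA4B from rank 12 to rank 18. Their levels on that length were 134 and 65.1 normalised counts per kb, and SEMA4D, a ligand known from the immune system, showed the widest gap of any member, at 53.0 on the canonical transcript and 17.1 on the merged exons. The lowest listed semaphorin was SEMA6C at 16.3 normalised counts per kb, 90.9 times below SEMA4C. SEMA3D, SEMA3E, SEMA3F, SEMA3G, SEMA4A and SEMA5B were not in the table.

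The share of genes in the table varied between the classes of semaphorin, which hold few genes each. Over all annotated protein-coding genes this share was 56.6%. All 4 class 6 genes and 5 of 6 class 4 genes, both transmembrane, were in the table, and they summed to 1109 and 1925 normalised counts per kb. Of the 7 secreted class 3 genes 3 were in the table, and they summed to 373. Class 7 has SEMA7A alone, and of the 2 class 5 genes SEMA5A was in the table, at 89.4. The secreted class thus held 6.11% of the members' summed level, and classes 4 and 6 held 31.5% and 18.1%. These sums rested on a single gene in each class, with SEMA4C at 77.0% of class 4 and SEMA6A at 73.9% of class 6. Without SEMA4C class 4 summed to 443 normalised counts per kb, and without SEMA6A class 6 summed to 289, below the whole of class 3. Class 3 in turn had 64.9% of its sum in SEMA3B, which was not left out there.

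**Figure D2:**
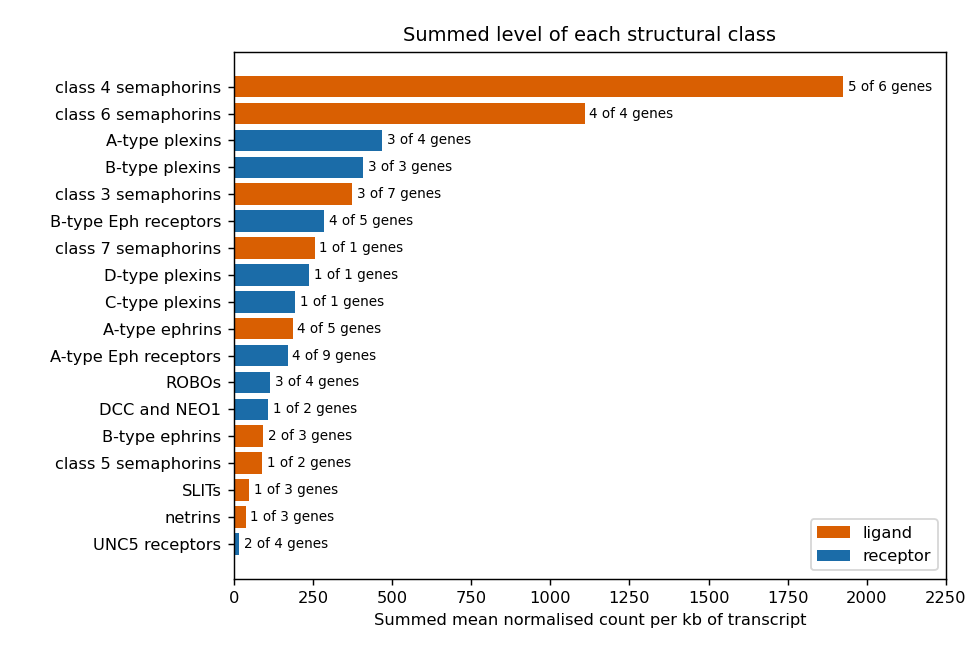
Summed mean normalised count per kb of canonical transcript for each structural class (bars, linear axis from 0), with the number of genes in the table out of those annotated. Class 4 and class 6 semaphorins (1925 and 1109) are the longest bars, of which SEMA4C and SEMA6A make up 77.0% and 73.9%, and the UNC5 receptors the shortest (16.2).

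Among plexins, the semaphorin receptors, 4 genes stood above the median of all genes and 4 below it. PLXNA1, which signals for secreted semaphorins together with neuropilins, was highest at 414 normalised counts per kb, from a mean of 3857 normalised counts. Its position is chromosome 3, 126701536 to 126756232, plus strand (GRCh37), and its canonical transcript has 32 exons. PLXNB2, the receptor of SEMA4C, followed at 330.1 normalised counts per kb. PLXND1, known as the vascular receptor of SEMA3E, stood at 238, and PLXNC1, the receptor of SEMA7A, at 193. PLXNB1, the receptor of SEMA4D, was the lowest plexin in the table at 10.9 normalised counts per kb, 38.1 times below PLXNA1. PLXNA4 was not in the table. Of the A-type plexins PLXNA1 held 88.4% of the summed level.

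The Eph receptors, a large family of receptor tyrosine kinases, were dominated by EPHB4. It stood at 264 normalised counts per kb, from a mean of 1149 normalised counts, and held 57.9% of the family's summed level. EPHB4 is known from the separation of arteries and veins, where it receives ephrin-B2. It lies on the minus strand of chromosome 7 from 100400187 to 100425145 (GRCh37), with 17 exons. The remaining 7 Eph receptors in the table lay below the median of all genes, and 5 of the 8 were below the lower quartile. EPHA3, next in the order, stood at 77.0 normalised counts per kb, a ratio of 3.43 to EPHB4. The other listed B-type receptors, EPHB3, EPHB1 and EPHB2, lay at 6.11 to 9.86, so EPHB4 stood apart from its own class more than from the A-type receptors (12.1 to 77.0). EPHB2 was the lowest of the family, but EPHB1 and EPHB2 were both at 6.11 and changed order with merged exons or coding length. EPHA1, EPHA6, EPHA7, EPHA8, EPHA10 and EPHB6 were not in the table.

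The highest and lowest ephrin levels differed by 5.58 times on the canonical transcript, against 18.6 times for ROBOs, 43.2 times for Eph receptors and 90.9 times for semaphorins. The lowest mean in the table was 23.1, and at that count a short transcript has a higher level per kb than a long one. EFNA1 has 1552 bases and ROBO2, the lowest ROBO, 9018, so the low ends of these spreads are not bounded alike. The order of ephrins and ROBOs turned with the length, since the spread was 17.4 times for ephrins and 12.7 times for ROBOs on coding length, and 19.3 and 14.3 times without division by length. EFNA5, a lipid-anchored ephrin that patterns the retinal map in the midbrain, was highest at 84.5 normalised counts per kb, and on coding length it moved from rank 17 to rank 4 of the members, at 663. EFNA1 was lowest at 15.1, from a mean of 23.5 normalised counts, close to the lowest mean of any gene in the table (23.1). All 6 listed ephrins were below the median of all genes on the canonical transcript, and EFNA2 and EFNB2 were not in the table. Of the A-type (lipid-anchored) ephrins 4 of 5 were listed, summing to 185 normalised counts per kb, and of the B-type (transmembrane) ephrins 2 of 3, summing to 91.9.

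In the SLIT and netrin systems a single receptor stood out in each. ROBO1 stood at 90.9 normalised counts per kb and held 80.0% of the ROBO level. ROBO3, which in commissural axons controls midline crossing, stood at 17.8 and ROBO2 at 4.89, and ROBO4 was not in the table. On merged exons ROBO1, ROBO3 and ROBO2 stood at 57.0, 11.6 and 2.65, in the same order. NEO1, which encodes neogenin, a relative of DCC that also receives repulsive guidance molecules, stood at 107 normalised counts per kb and held 86.9% of the netrin receptor level. UNC5B, one of the receptors that mediate repulsion by netrin, stood at 13.2, and UNC5C at 2.94, the lowest level of all 44 on the canonical transcript. The mean of UNC5C was 28.3 normalised counts on 9642 bases, near the lowest mean in the table (23.1), and by mean count EFNA1 was last. On merged exons UNC5C and ROBO2 were both at 2.65 with ROBO2 last, and on coding length EPHB1 was last. DCC, UNC5A and UNC5D were not in the table, nor were the ligands SLIT1, SLIT2, NTN3 and NTN4.

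Summed over the listed genes of each signalling system, ligand and receptor transcripts were balanced differently. The 12 ligands and 11 receptors not in the table added nothing to these sums, although absence gives no upper limit on a level. Semaphorins summed to 3751 normalised counts per kb and plexins to 1307, a ratio of 2.87. The ratio was 0.608 for ephrins over Eph receptors (277 and 456), 0.419 for the SLIT over the ROBOs (47.7 and 114) and 0.301 for the netrin over its receptors (36.9 and 123). Each of the 4 ratios moved when its 1 or 2 highest genes were left out of 1 side, with the other side kept whole. Omission of the highest genes from both sides at once was not computed. Without PLXNA1, the highest plexin, the semaphorin ratio was 4.20. Without SEMA4C and SEMA6A semaphorins exceeded plexins 1.11 times, and without EPHB4 ephrins exceeded Eph receptors 1.45 times. Without ROBO1 the SLIT exceeded the remaining ROBOs 2.10 times, and without NEO1 the netrin exceeded the UNC5 receptors 2.29 times. The ephrin ratio also crossed 1 with coding length as the divisor, at 1.51. On that length EFNA5, with 684 coding bases in a transcript of 5372, stood at 663 normalised counts per kb. The next ephrin, EFNB3, stood at 211.

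Levels of single ligands were then set beside those of receptors they are known to bind, in 17 textbook pairs that were picked after the levels had been seen. Both genes were in the table in 12 pairs, only the ligand in 2 and only the receptor in 3. In 5 of the 12 the ligand and receptor lay within 1.5 times of each other, a limit set after the ratios had been seen. These were EFNA5 and EPHA3 (84.5 and 77.0 normalised counts per kb), EFNA1 and EPHA2 (15.1 and 12.1), EFNB3 and EPHA4 (67.1 and 53.6), SEMA7A and PLXNC1 (255 and 193), and SEMA5A and PLXNB3 (89.4 and 66.1). The count depended on the length. With merged exons 4 of these pairs were within that limit, and on coding length SEMA7A and PLXNC1 alone of the 5 remained, while EFNA5 stood 4.45 times above EPHA3 and SEMA5A 4.59 times above PLXNB3. The count covers the picked pairs only, and other pairings were not counted. EFNB3, a B-type ephrin, was set beside the A-type EPHA4, while EPHB3, EPHB1 and EPHB2 stood at 6.11 to 9.86 and EPHB4 at 264. SEMA4C stood 4.49 times above PLXNB2, and SEMA6A stood 24.2 times above PLXNA2. NEO1 stood 2.89 times above NTN1, whereas NTN1 stood 2.79 times above UNC5B. In the 3 pairs with only the receptor in the table, EPHB4 was paired with EFNB2, PLXND1 with SEMA3E and ROBO1 with SLIT2. These receptors were set beside only the ligand picked for each, and other ligands may be in the table. For ROBO1 the table holds SLIT3, at 47.7 normalised counts per kb. The absence of a gene from the table gives no upper limit on its level, because the authors' filter on low counts is not stated.

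**Figure D3:**
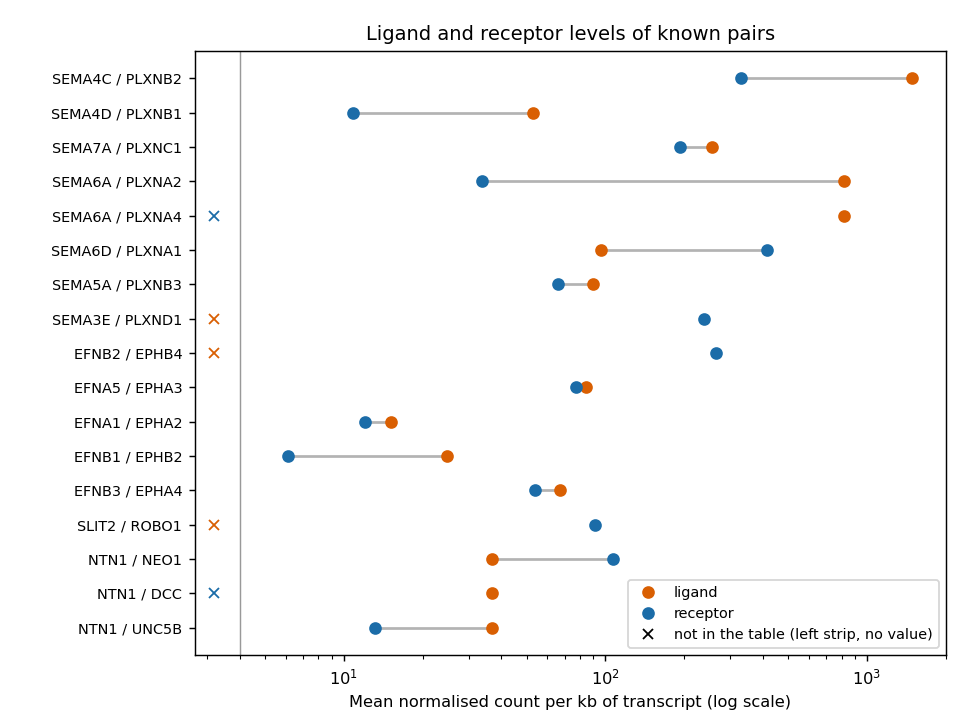
Mean normalised count per kb of canonical transcript (log axis) of the ligand and the receptor of 17 known pairs, joined by a line where both were in the table. Crosses in the left strip mark genes not in the table and carry no value, and EPHB4 at 264 and PLXND1 at 238 face such a cross.

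Some members lie close together in the genome, and their levels were set side by side. SEMA3F and SEMA3B lie 78.5 kb apart on chromosome 3 (GRCh37), and SEMA3B stood at 242 normalised counts per kb while SEMA3F was not in the table. On chromosome 7, SEMA3E and SEMA3D lie 307 and 503 kb to either side of SEMA3A and were not in the table, while SEMA3A stood at 65.3 normalised counts per kb. SEMA3C, at 65.6, is no close neighbour of these, since it lies 2441 kb from SEMA3E. EFNA4, EFNA3 and EFNA1 lie within 71.2 kb on the plus strand of chromosome 1, at 46.5, 39.0 and 15.1 normalised counts per kb. ROBO3 and ROBO4 lie 2.22 kb apart on chromosome 11, and ROBO3 alone was in the table. These loci were picked after the levels had been seen.

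The promoters of the members were mostly CpG-rich whether or not the gene was in the table. A window was taken as CpG-rich at a GC content of at least 50% and an observed over expected CpG ratio of at least 0.6. Among members with a RefSeq window (58 of 67), 27 of 38 in the table (71.1%) and 13 of 20 not in the table (65.0%) met this. Over all 15318 protein-coding genes with a window, the shares were 83.1% and 34.3%. The searched letters were CG, which reads the same on both strands. The windows printed above show the range, with 37 CpG in that of SEMA4C, 36 in EPHB4, 49 in EFNB2, which was not in the table, and 2 in SEMA3C, which stood at 65.6 normalised counts per kb. PLXNA1, with 54, had the most CpG of the members with a window, while EPHB2, with 49, stood at 6.11 normalised counts per kb. SEMA6A, at 820 normalised counts per kb, had no window. A single RefSeq start was taken per gene, and a count per gene does not show which start these cells use. A composition of this kind is a description and was not tested against the levels.

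**Figure D4:**
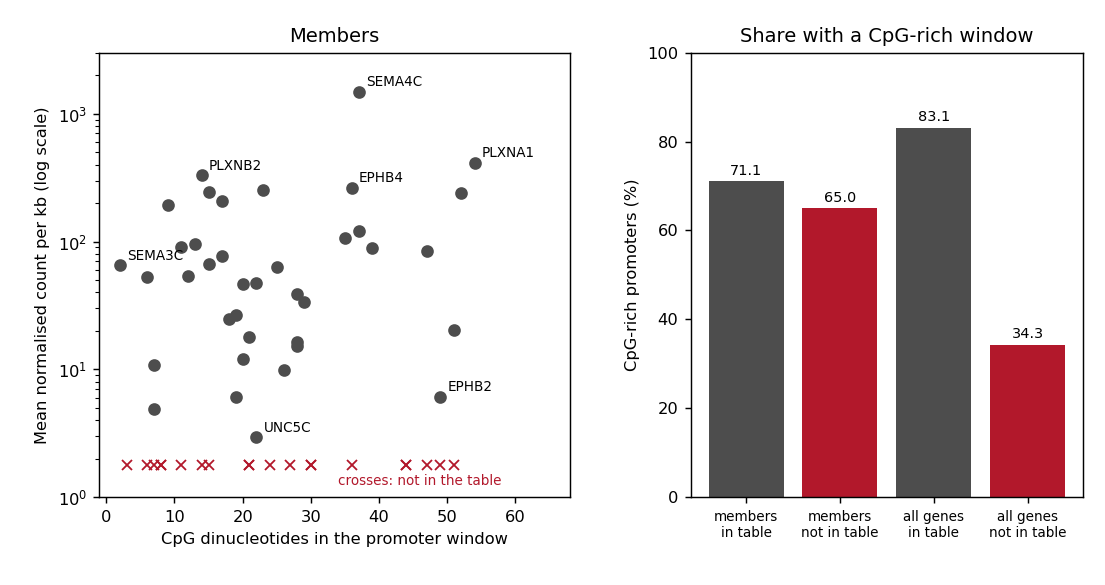
Left, number of CpG dinucleotides in the 300-base promoter window against the mean normalised count per kb (log axis), for the 38 members in the table that have a window. Crosses at the bottom mark the 20 members with a window that are not in the table (no value). SEMA6A has no window and is not shown. Right, percent of windows that are CpG-rich, for members and for all protein-coding genes, in the table (71.1% and 83.1%) and not in it (65.0% and 34.3%).

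Co-receptors and signalling partners of guidance had higher median levels than the ligands and receptors themselves, whose median was 64.2 normalised counts per kb. Of 13 co-receptors and further guidance cues 12 were in the table, with a median of 142 normalised counts per kb. The highest were DAG1 (dystroglycan, which binds SLIT) at 3249, the adhesion molecule gene L1CAM at 1795, NRP2 at 1582 and GPC1, a SLIT-binding glypican, at 487. The neuropilins thus lay far apart, with NRP1 at 15.5 normalised counts per kb. Of 36 signalling genes 34 were in the table, with a median of 222. The highest were FARP2, an exchange factor downstream of plexin-A1, at 2270, the adaptor NCK2 at 1372, GIPC1, which binds the tails of SEMA4C and plexin-D1, at 1336, and the cofilin kinase LIMK1 at 1008. Above the median of all genes were 21 of these 34 signalling genes and 7 of the 12 co-receptors, beside 12 of the 44 members.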

How the data were processed

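The submitters' processing notes name Trim Galore 0.4.4, Bowtie 1.1.2, the hg19 build and DESeq2. Which tool counted reads, on which annotation, whether by strand, and how reads across exon junctions were handled are not given in the sources read. Members had a median of 3.31 exons per kb and all protein-coding genes 3.04. Family medians ran from 1.60 for ephrins to 4.59 for SLITs, with Eph receptors at 3.25 and plexins at 4.14. Pairs differed too, with EFNA5 at 0.931 and EPHA3 at 2.98, and NTN1 at 1.17 and NEO1 at 4.08. The effect on levels, and so on families, ligand over receptor ratios and pairs, was not tested.

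The deposited signal used here is the mean normalised count, which the authors scaled for depth and averaged over 6 libraries. The other 5 columns of numbers, and a smaller table, hold the authors' own comparison of the groups (fold change, its error, statistic and p-values) and were not used. No test could be made.

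Of 13449 gene IDs, 13161 matched GENCODE v44 lifted to GRCh37. Levels were means per kb of canonical transcript, and percentiles were taken over 11423 protein-coding genes. Promoter windows came from RefSeq (GRCh38.p14). Calculations used Python 3.11.15 with pandas 2.3.3 and numpy 2.4.6, and were tested on simulated data. Genes at or above the median level and the highest and lowest of each family were to be named, with up to 4 genes of each partner list. Pairs, genomic neighbours and promoters were picked later. Members and lists were chosen with earlier results of these data known. The precision of each value is unknown, since no depth or error per library could be had.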

Additional observations from a re-analysis of the deposited data

How the results depend on the processing

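No paired analysis was possible because only a mean over all libraries was used. Omission of single libraries and count models with other scalings were likewise not run. Of 75 alternative values, 58 were within 1.5 times of the reported one. Omission of single genes, and the lengths tried for the ephrin spread and the pairs, were added after the levels had been seen. With coding length as the divisor, the ephrin share of the summed level rose from 4.53% to 10.6%, and the ligand over receptor ratio became 1.51 for ephrins, 0.647 for SLITs and 0.567 for netrins. The ephrin spread became 17.4 times and 2 pairs lay within 1.5 times. Without division by length the ephrin share was 2.67%, and the ratio was 0.386 for ephrins and 1.78 for semaphorins, the ephrin spread 19.3 times, and 2 pairs lay within 1.5 times. These shifts follow from the lengths alone. Without SEMA4C the semaphorin ratio was 1.74, without SEMA4C and SEMA6A it was 1.11 and the semaphorin share 38.0%, and without EPHB4 the ephrin ratio was 1.45. Without ROBO1 the SLIT ratio was 2.10 and without NEO1 the netrin ratio 2.29, so both crossed 1. Omission of PLXNA1 left the semaphorin ratio at 4.20. The count of members in the table was 38 with a mean of at least 50 normalised counts and 30 with at least 100. The median percentile ranged from 27.6 to 48.0 over its alternatives, below 50 in each.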
